A study of Mus musculus with 24 samples.

Results

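The mitochondrial ribosomal proteins are the nuclear-encoded proteins of the ribosome inside mitochondria. Their genes were taken as every gene name on the array that starts with Mrpl or Mrps followed by a digit, which gave 77 names, 47 of the large subunit (Mrpl) and 30 of the small subunit (Mrps), among 36413 gene names in all. A gene counted as measured when a probe was well above background on at least 6 of the 24 arrays, and its brightest such probe stood for it. This left 75 measured members, 46 large and 29 small, among 28237 genes tested, and all 75 probes were well above background on all 24 arrays. Mrpl21 and the pseudogene Mrps36-ps1 did not pass and are not analysed here. The rule uses names and signal strength, and it was set with earlier results of these data known.

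Each array measured RNA from the left ventricle of 1 male mouse, 24 mice in all, with 4 groups of 6. CON mice are the controls, and whether they carried any piece of the transgene system is not given in the sources used here. The mG4H mice carried an inducible transgene for the glucose transporter GLUT4 that is expressed in cardiomyocytes. Within each genotype, STZ mice received streptozotocin, a toxin of insulin-producing beta cells, at 55 mg per kg on 5 consecutive days, and VEH mice received the citrate buffer. Per the labels, the transgene was switched on 2 weeks after STZ for a further 2 weeks, and the right ventricle was removed. The same induction times are listed for the mice of all 4 groups, CON and VEH included. Brothers were split between groups, per the labels, which do not name them, and the ages, the strain and the promoter that drives the transgene are likewise not given. The comparisons ask what STZ diabetes does in each genotype and whether the transgene changes that response.

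The mitochondrial ribosome translates the few messages that mitochondrial DNA encodes, all of them for membrane subunits of the respiratory chain and ATP synthase. Its RNAs are made from mitochondrial DNA, whereas its proteins are made in the cytosol and imported, so the heart, which lives on oxidative phosphorylation, needs both genomes to build this machine. The small subunit holds the decoding site, and the large subunit joins amino acids and feeds the new chain to the inner membrane. Some of the proteins have a counterpart in bacteria, and others were added in the mitochondrial lineage.

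Values below are log2 signals relative to each array's 75th percentile, so that 0 is that percentile, and a level of a probe cannot be set against that of another probe. The 75th percentile lay between 370 and 583 intensity units, 58.5% to 76.3% of gene spots per array were well above background, and no gene spot was saturated. The number of arrays limits the precision. All 13 cardiomyocyte markers looked for were measured. Slides 1 to 3 held arrays of all 4 groups, while slide 4 held a single array from each VEH group, replicate 3 in each case, and these arrays alone were scanned on another day. Blood glucose at 4 weeks, listed without a unit, was 117 to 164 in CON VEH, 600 to 601 in CON STZ, 131 to 152 in mG4H VEH and 500 to 601 in mG4H STZ. The same value, 601, recurs in both STZ groups, and whether it is an upper limit of the reading is not given in the sources used here. The probe for Slc2a4, the GLUT4 gene, was lower in CON STZ than CON VEH (log2 fold change -0.58, adjusted p = 0.044), and it differed between mG4H and CON by -0.20 under VEH and 0.20 under STZ, neither past the threshold. The STZ call at this probe was lost in 20 of 37 alternatives. A higher level in mG4H was not shown at either treatment, and whether the probe lies within the transgene's sequence is not given in the sources used here.

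In the CON heart, STZ was accompanied by lower RNA for genes of both ribosomal subunits. In CON STZ against CON VEH, 72 of the 75 members had a log2 fold change below 0, where 44.8% of all genes tested did. The median over members was -0.22, a 1.16-fold lower level, and the median over all genes was 0.027. With limma and Benjamini-Hochberg adjustment over all 28237 genes, 7 members fell and 0 rose at an adjusted p under 0.05, against a background of 2.29% of genes lower and 1.66% higher. At an unadjusted p under 0.05, 47 members were lower (background 7.75%) and 0 were higher (background 6.51%). The 7 were Mrpl12, Mrpl42, Mrpl43, Mrpl46 and Mrpl49 of the large subunit and Mrps12 and Mrps27 of the small subunit.

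**Figure D1:**
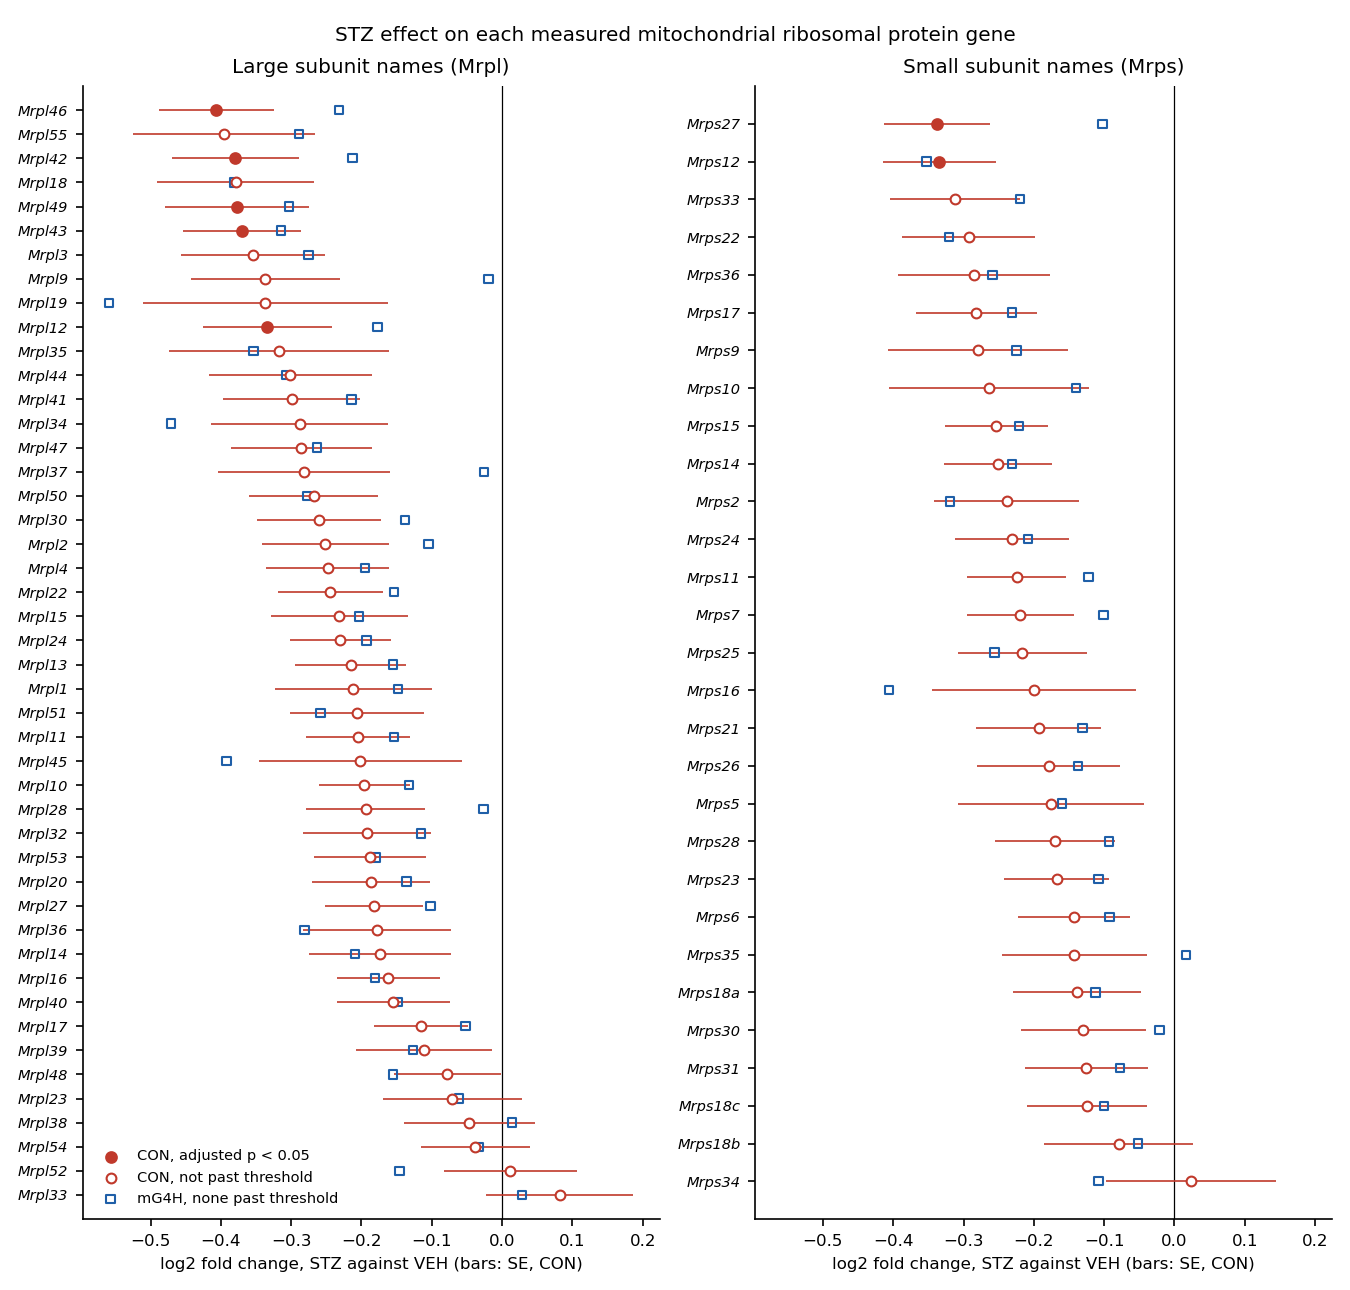
Log2 fold change of STZ against VEH for each of the 75 measured members, ordered by the value in CON (circles, with the standard error; filled where adjusted p was under 0.05), with the value in mG4H as squares. Nearly the whole column lies left of 0 in both genotypes, 72 of 75 in each, and the 7 filled circles are all between -0.41 and -0.33.

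The number of calls moved with the setting: 0 members passed with arrays centred on the median of gene spots or of the genes tested, or with body weight as a covariate, 2 with only the groups compared and 3 without slide 4, while 13 passed with quantile normalization or the slide as a block, and 17 with array weights. The median over members stayed between -0.26 and -0.19 across these and the other settings tried. Leaving out replicate 4 of CON STZ raised the count to 15, and leaving out replicate 3 of CON VEH or replicate 1 or 5 of CON STZ lowered it to 4, while 12 passed without replicate 3 or 5 of mG4H STZ.

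Several of these genes start back to back with another gene, so that a short stretch of DNA lies between start sites on opposite strands. Of the 66 measured members with a start in the RefSeq promoter table (build GRCm38.p6), 24 (36.4%) had a gene on the other strand starting within 1000 bases upstream, against 12.2% of the 27025 genes in that table. The distance between the starts was 7 to 934 bases with a median of 135. Of the 7 members that fell in CON STZ, 5 are among these 24. The sequence between their starts is shown because it is the whole shared upstream region of each such pair. Each is written 5′ to 3′ on the strand of the ribosomal protein gene, with capitals marking CCGGAAG or its reverse complement, the core bound by ETS factors such as GABP (also called NRF-2), an activator of nuclear genes for mitochondrial proteins.
Mrpl43, starting opposite Twnk, the mitochondrial DNA helicase (chr19:45006443-45006557, minus strand): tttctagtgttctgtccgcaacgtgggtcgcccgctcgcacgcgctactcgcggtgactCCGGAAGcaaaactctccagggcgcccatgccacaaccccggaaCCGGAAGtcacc
Mrpl46, starting opposite Mrps11 (chr7:78783090-78783130, minus strand): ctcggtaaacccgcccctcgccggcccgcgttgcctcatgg
Mrpl49, starting opposite Fau, which encodes a cytosolic ribosomal protein fused to a ubiquitin-like protein (chr19:6057756-6057946, minus strand): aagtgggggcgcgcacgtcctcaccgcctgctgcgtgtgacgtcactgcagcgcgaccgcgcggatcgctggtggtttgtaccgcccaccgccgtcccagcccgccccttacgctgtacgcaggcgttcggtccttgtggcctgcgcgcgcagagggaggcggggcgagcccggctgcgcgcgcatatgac
Mrps12, starting opposite Sars2, the mitochondrial seryl-tRNA synthetase (chr7:28741822-28741967, minus strand): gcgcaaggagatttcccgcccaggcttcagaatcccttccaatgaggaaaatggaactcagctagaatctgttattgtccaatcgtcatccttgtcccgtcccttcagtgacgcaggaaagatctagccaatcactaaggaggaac
Mrps27, starting opposite Ptcd2, a mitochondrial RNA-processing protein (chr13:99344679-99344785, plus strand): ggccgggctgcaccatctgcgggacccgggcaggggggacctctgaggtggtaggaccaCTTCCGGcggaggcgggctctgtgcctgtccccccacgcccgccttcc
The ETS core occurs 2 times between Mrpl43 and Twnk and 1 time between Mrps27 and Ptcd2, and these letters are not in the other 3 stretches.

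Across the 250 bases before the start, on both strands, the ETS core was present in 17 of the 66 members (25.8%) and in 7.83% of all 27025 genes in the table, each gene counted once. The core CGCATGCG of NRF1, another activator of nuclear mitochondrial genes, was present in 7 members (10.6%, against 1.75% of genes). The longer form with G before and C after it, searched before the short one, was in 3 members (4.55%, against 0.877%). The YY1 core AAGATGGC was in 4 members (6.06%, against 1.83%). The E-box CACGTG was found in 5 members (7.58%, against 6.86%) and the ERR core AAGGTCA in 3 (4.55%, against 4.70%). Apart from the NRF1 forms, no motif contains another, and a match is a stretch of letters, not a measured binding site. The members with the ETS core had a median log2 fold change of -0.20 in CON STZ against CON VEH, beside -0.23 in the members without it.

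Among the large subunit genes, Mrpl46 fell the most. It encodes a protein of the central protuberance, the large subunit's contact with the small subunit, and its probe lies at chr7:85925385-85925444 (mm9, minus strand). Its level was 3.55 at the lowest, 3.61 at the median and 3.73 at the highest in CON VEH, and 3.01, 3.20 and 3.56 in CON STZ. All but 1 of the STZ arrays lay below the lowest buffer array, 5 of 6, and the remaining one lay just above it. The group means were 3.63 ± 0.066 and 3.22 ± 0.195 (SD, n = 6), a log2 fold change of -0.41 (SE 0.081, adjusted p = 0.00586). Among further central protuberance genes, not a full list, Mrpl18, whose bacterial counterpart binds 5S rRNA, had -0.38 (adjusted p = 0.058). Mrpl40 had -0.15, Mrpl48 had -0.078 and Mrpl38 had -0.046, and none of these genes passed the threshold.

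Mrpl12 encodes the protein of the flexible stalk that recruits translation factors, and it also has a reported role in mitochondrial transcription. Its probe lies at chr11:120349740-120349799 (mm9, plus strand). Its level ran from 6.12 through a median of 6.20 to 6.27 in CON VEH, and from 5.68 through 5.80 to 6.18 in CON STZ. The buffer arrays were tightly grouped and 5 of 6 STZ arrays lay below all of them, with means of 6.20 ± 0.051 and 5.86 ± 0.185 (SD, n = 6) and a log2 fold change of -0.33 (SE 0.092, adjusted p = 0.042). This call was lost in 21 of 37 alternatives, and that of Mrpl49 in 16, against 3 to 7 for the other 5 members. The neighbours of Mrpl12 in the stalk base, Mrpl10 and Mrpl11, had -0.20 (adjusted p = 0.11) and -0.20 (adjusted p = 0.15).

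Mrpl42, Mrpl43 and Mrpl49 encode large subunit proteins with no bacterial counterpart. For Mrpl43 (probe at chr19:45079976-45080035, mm9, minus strand), CON VEH ran from 5.42 through 5.63 to 5.74 and CON STZ from 5.04 through 5.23 to 5.48. The STZ arrays lay below the lowest buffer array in 5 of 6 mice, and the log2 fold change was -0.37 (SE 0.084, adjusted p = 0.014). For Mrpl42 (chr10:94963065-94963124, mm9, minus strand), CON VEH ran from 4.41 through 4.60 to 4.80 and CON STZ from 4.02 through 4.19 to 4.48. Again 5 of 6 STZ arrays were below every buffer array, with a log2 fold change of -0.38 (SE 0.090, adjusted p = 0.019). Mrpl49 (chr19:6054680-6054739, mm9, minus strand) ran from 3.05 through 3.18 to 3.40 in CON VEH and from 2.66 through 2.78 to 3.11 in CON STZ, with 5 of 6 STZ arrays below every buffer array and a log2 fold change of -0.38 (SE 0.10, adjusted p = 0.039).

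In the small subunit, Mrps12 encodes the protein at the decoding centre where codons and tRNAs are matched. Its probe lies at chr7:29524837-29524896 (mm9, minus strand). Its level ran from 3.64 through 3.85 to 3.87 in CON VEH and from 3.16 through 3.50 to 3.59 in CON STZ. The groups did not overlap, all 6 STZ arrays lying below all 6 buffer arrays, and the log2 fold change was -0.33 (SE 0.081, adjusted p = 0.020). Mrps27, a pentatricopeptide repeat protein of a kind that binds RNA (chr13:100185032-100185091, mm9, plus strand), ran from 0.15 through 0.21 to 0.31 in CON VEH and from -0.27 through -0.15 to 0.068 in CON STZ. Here too the groups did not overlap, and the log2 fold change was -0.34 (SE 0.076, adjusted p = 0.013). Complete separation of this kind was seen for 5 members, Mrpl9, Mrps9, Mrps12, Mrps14 and Mrps27, against 2.67% of all genes.

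**Figure D2:**
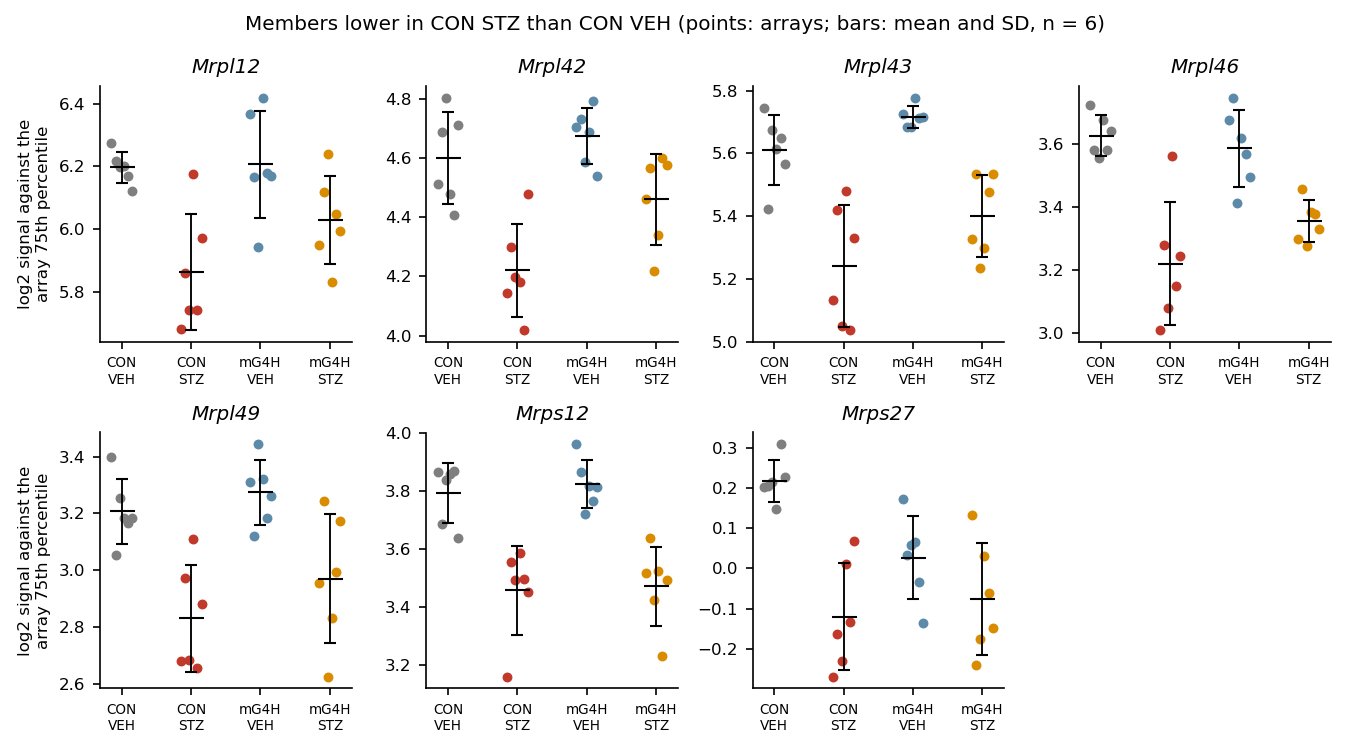
Level of each of the 7 members that fell in CON STZ, as log2 signal against the array's 75th percentile, with each mouse as a point and mean and SD of the 6 mice as bars. The CON STZ points sit low in every panel, for Mrps12 between 3.16 and 3.59 under a CON VEH range of 3.64 to 3.87, and at least 5 of 6 mG4H STZ points lie under the mG4H VEH median in every panel.

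The other members followed at smaller or more variable values. Mrpl55 had -0.40, nearly as low as Mrpl46, but its CON STZ arrays ran from 4.58 to 5.36 and its adjusted p was 0.096. At the other end, the log2 fold change was 0.082 for Mrpl33, 0.024 for Mrps34, 0.012 for Mrpl52, -0.038 for Mrpl54 and -0.046 for Mrpl38. None of these 5 passed the threshold, and all but Mrpl54 changed sign under some other setting. The probes with the strongest signal in each subunit were Mrpl33, Mrpl14 and Mrpl51, and Mrps21, Mrps28 and Mrps23, and apart from Mrpl33 they lay between -0.21 and -0.17. The value of Mrpl33 in CON STZ rests on 5 arrays, since 1 of its spots was left out as an outlier.

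The large and small subunits had nearly the same values. In CON STZ the median log2 fold change was -0.22 over the 46 large subunit genes and -0.22 over the 29 small subunit genes. Of the large subunit genes 44 were below 0 and 5 (10.9%) fell. Of the small subunit genes 28 were below 0 and 2 (6.90%) fell. Over all genes, 44.8% were below 0 and 2.29% were lower at the threshold. The large minus small difference of these medians was -0.0063 in CON STZ and -0.041 in mG4H STZ, and it was not tested. On single arrays the difference between the subunits' median levels varied from -0.045 to 0.061 over the 24 arrays. That is a spread of levels on single arrays, not the error of the difference in STZ effects. Names and places disagree for 3 members: Mrps30 and Mrps18a sit in the large subunit, and Mrps36 is a subunit of the oxoglutarate dehydrogenase complex. Their log2 fold changes were -0.13, -0.14 and -0.29, none past the threshold, and sorting members by place gave medians of -0.21 for 48 large and -0.22 for 26 small subunit genes.

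Members with a bacterial counterpart had a median of -0.23, with 2 of 45 lower at the threshold (Mrpl12 and Mrps12). Those added in mitochondria had a median of -0.20 and a wider spread, with 5 of 27 lower at the threshold. The middle of that spread, from the 25th to the 75th percentile, ran from -0.30 to -0.12, beside -0.28 to -0.19 for the members with a counterpart. The shares lower at the threshold were 4.44% with a counterpart and 18.5% without, against 2.29% of all genes tested. Some measured members were placed in neither class, and the difference between the classes was not tested.

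Taking each member relative to its own mean over all arrays, the median over members gives the state of the whole set on each array. It ran from 0.0098 through 0.085 to 0.15 in CON VEH, from -0.29 through -0.12 to 0.081 in CON STZ, from 0.060 through 0.11 to 0.19 in mG4H VEH, and from -0.22 through -0.023 to 0.0059 in mG4H STZ. All 6 mG4H STZ arrays were below all 6 mG4H VEH arrays, whereas 1 CON STZ array reached the buffer level. That array, replicate 4 of CON STZ, was the highest of its group for 53 of the 75 members, and its blood glucose was listed as 601, as for most of its group. It also had 662 gene spots marked as outliers, against 90 to 274 on the other arrays, and all 5 missing member values are on it. It had the smallest share of spots well above background of all arrays, 58.5%, while the lowest arrays of the STZ groups, replicate 5 of CON STZ at -0.29 and replicate 4 of mG4H STZ at -0.22, had the largest, 76.2% and 76.3%. The part that this difference between arrays has in the members' values was not tested. Within single slides the members' median STZ effect was -0.12, -0.17 and -0.29 in CON and -0.13, -0.15 and -0.26 in mG4H on slides 1, 2 and 3, each from 1 or 2 mice per group, so the size differed between slides and the sign did not. The median over all genes was 0.036, -0.072 and 0.077 on these slides in CON and -0.039, 0.012 and -0.019 in mG4H.

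**Figure D3:**
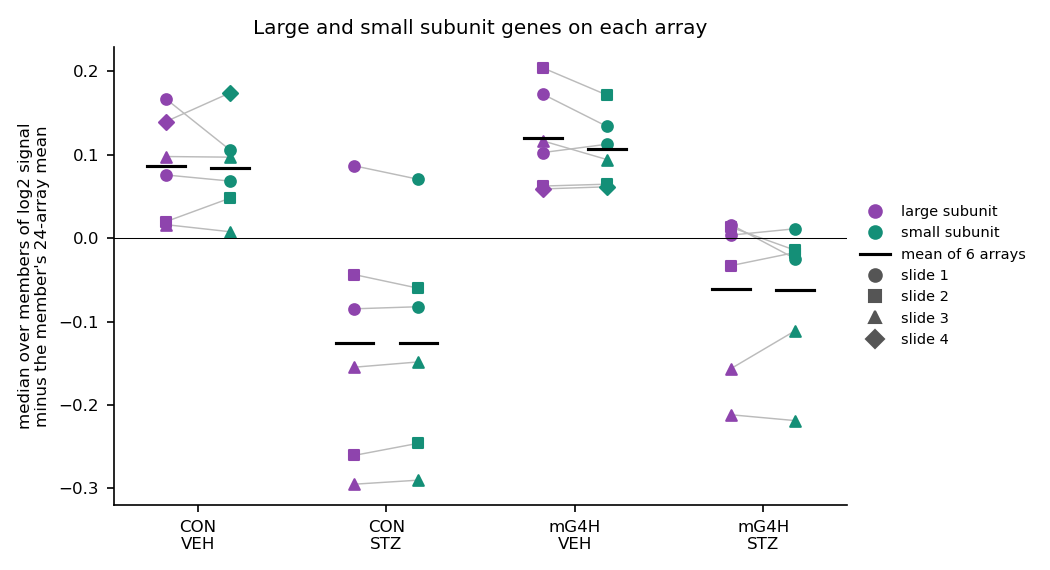
Median over large subunit members (left of each pair) and small subunit members (right) of the log2 signal minus the member's own 24-array mean, 1 pair of joined points per array, with marker shape for the slide and bars for the mean of 6 arrays. The joined points lie close together on every array, differing by -0.045 to 0.061, while arrays of CON STZ spread from -0.29 to 0.081.

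The STZ and VEH hearts also differed in markers of other cells. As background in CON STZ, 44.8% of all genes were below 0, 2.29% were lower and 1.66% higher at the threshold. In mG4H STZ 39.5% were below 0 and 0.0992% were higher at the threshold. In whole tissue, fewer cells of a type and less RNA per cell cannot be told apart. All 12 of 12 measured fibroblast markers had values above 0 in CON STZ, of which Postn and Mfap5 rose, and their summed signal relative to the 75th percentile was 637 to 749 in CON VEH and 727 to 940 in CON STZ. Of 11 measured macrophage and monocyte markers 10 were above 0 and Itgam rose, with a summed signal of 55.1 to 64.1 against 67.0 to 87.0, and Ly6c2 was not measured. All 9 measured adipocyte markers were above 0 and Cidea and Lipe rose, with 271 to 339 against 93.1 to 582, though Lep was not well above background on any CON VEH array. Of the 13 cardiomyocyte markers 12 were below 0 and Ckm, the muscle creatine kinase, fell, with 4327 to 5894 against 4091 to 5644 and a median log2 fold change of -0.061. Nppa, an atrial and stress-induced gene, rose by 2.36 in CON STZ and by 2.00 in mG4H STZ, while no other atrial marker passed. Of the 8 atrial markers, 5 were above 0 in CON STZ, with a median of 0.16. In mG4H STZ 6 of the 8 were below 0, with a median of -0.42. In mG4H VEH against CON VEH 6 of the 8 were above 0, with a median of 0.68 and none past the threshold. There 52.7% of all genes were below 0. All 5 measured neutrophil markers were above 0 and all 4 erythroid markers and 8 of 10 lymphocyte markers below 0 in CON STZ, and none of these passed, nor did any endothelial, smooth muscle or pericyte marker. The neutrophil marker Cxcr2 was not well above background on any CON VEH array. The summed erythroid signal ranged widely in mG4H STZ, from 31.3 to 1019. The part of these markers in the ribosomal protein result was not tested. In mG4H the same fibroblast sum was 607 to 820 under VEH and 644 to 852 under STZ, with 8 of 12 markers above 0 and none past the threshold, and the macrophage sum was 52.8 to 62.5 and 58.0 to 79.9. There the cardiomyocyte sum was 4286 to 5749 and 4361 to 5430.

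In the mG4H heart, STZ gave the same direction with no member past the threshold. In mG4H STZ against mG4H VEH, 72 of 75 members were again below 0, where 39.5% of all genes were. The median over members was -0.16, a 1.11-fold lower level, and the median over all genes was 0.061. By limma, 0 members fell and 0 rose at an adjusted p under 0.05, against a background of 0.166% lower and 0.0992% higher. At an unadjusted p under 0.05, 33 members were lower (background 7.61%) and 0 higher (background 6.39%). The large subunit median was -0.18 and the small subunit median -0.14. With arrays centred on the median of gene spots, the median over members became -0.26 and that of all genes -0.048. The number of all genes past the threshold, 75 here, was 627 without replicate 2 of mG4H STZ, 17 without replicate 1 of mG4H VEH and 0 with only the groups compared. Leaving out replicate 2 of mG4H STZ gave 4 members lower at the threshold, and leaving out replicate 1 or 3 of CON STZ gave 1.

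Mrps12 had the smallest adjusted p in mG4H, 0.060, and its values resembled those in CON. It ran from 3.72 through 3.82 to 3.96 in mG4H VEH and from 3.23 through 3.51 to 3.64 in mG4H STZ, with no overlap and a log2 fold change of -0.35 (SE 0.081). The lowest value was that of Mrpl19, a large subunit protein, whose levels ran from 2.64 through 2.74 to 2.91 under VEH and from 1.78 through 2.14 to 2.62 under STZ. These groups did not overlap either, but the STZ arrays were widely spread, and the log2 fold change was -0.56 (SE 0.17, adjusted p = 0.15). Mrpl34 followed at -0.47 (adjusted p = 0.10), Mrps16 at -0.41 (adjusted p = 0.20), Mrpl45, which anchors the ribosome to the inner membrane, at -0.39 (adjusted p = 0.21) and Mrpl18 at -0.38 (adjusted p = 0.13). Separation of all STZ from all buffer arrays was seen for 10 members in mG4H, namely Mrpl14, Mrpl16, Mrpl18, Mrpl19, Mrpl43, Mrpl45, Mrps12, Mrps15, Mrps22 and Mrps25, against 1.22% of all genes. The highest values were 0.029 for Mrpl33, 0.017 for Mrps35 and 0.014 for Mrpl38, followed by -0.019 for Mrpl9 and -0.021 for Mrps30.

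The STZ effects of the genotypes were not shown to differ for any member. The difference of the effects, mG4H minus CON, had a median of 0.048 over members and 0.024 over all genes, and 0 members passed in either direction, as did 0.0% of all genes. At an unadjusted p under 0.05, 0 members were lower (background 0.804%) and 2 were higher (background 0.97%), Mrpl9 and Mrps27. For Mrpl9, which CON STZ had at 1.60 through 1.92 to 2.07 against 2.14 through 2.19 to 2.36 in CON VEH, the mG4H groups overlapped at 1.88 through 2.12 to 2.59 and 2.09 through 2.19 to 2.31. Its STZ effect was -0.34 in CON and -0.019 in mG4H, a difference of 0.32 (SE 0.15). For Mrps27 the difference was 0.24 (SE 0.11), with -0.34 in CON and -0.10 in mG4H. Mrpl37, a large subunit protein, lay between them at 0.26 (SE 0.17), and the lowest difference was -0.22 (SE 0.25) for Mrpl19.

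The transgene by itself was not accompanied by a change in any member that passed the test. Under VEH, mG4H minus CON had a median of 0.021 over members and -0.0084 over all genes. Of the members 26 of 75 were below 0, where 52.7% of all genes were. At the threshold 0 members were lower or higher (background 0.046% and 0.0354%). At an unadjusted p under 0.05, 1 was lower, Mrps27 at -0.19, and 1 was higher, Mrpl50 at 0.20, with backgrounds of 1.38% and 1.49%. The highest value belonged to Mrpl45 at 0.25, where replicate 3 of CON VEH lay far below its group, and the value was 0.12 without that array. Under STZ the median was 0.059 over members and 0.015 over all genes. Of the members 11 of 75 were below 0, where 45.8% of all genes were. Again 0 members were lower or higher at the threshold (background 0.00354% and 0.00708%). There 0 members were lower (background 1.48%) and 3 were higher (background 2.07%) at an unadjusted p under 0.05, Mrpl9 at 0.28, Mrpl42 at 0.24 and Mrps11 at 0.18. These genotype comparisons use the same groups as the STZ comparisons, so they are not separate evidence.

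Other parts of the mitochondrial translation apparatus lay on the same side of 0 in CON STZ. Over all genes tested, 44.8% were below 0 there and 2.29% were lower at the threshold. The 7 proteins of this ribosome that carry other names were all below 0 with a median of -0.18, and Ptcd3, a small subunit protein near the entry of the message, fell by 0.42 on the log2 scale (adjusted p = 0.036). All 15 measured translation factors were below 0 with a median of -0.24, and 2 fell. Tufm, the elongation factor that delivers tRNAs, had -0.41 (adjusted p = 0.026), and Taco1, the translational activator of cytochrome c oxidase subunit I, had -0.51 (adjusted p = 0.039). Of 21 measured mitochondrial aminoacyl-tRNA synthetases 18 were below 0, the median was -0.20, and Cars2 (-0.44) and Lars2 (-0.41) fell. Of 20 assembly and ribosomal RNA factors 18 were below 0, the median was -0.21, and Eral1 (-0.37), a chaperone of the small subunit RNA, and Rpusd4 (-0.41), a pseudouridine synthase, fell. None of these genes passed the threshold in the other comparisons. The call of Rpusd4 was lost in 22 of 37 alternatives, that of Taco1 in 16 and that of Ptcd3 in 15, against 3 to 8 for Tufm, Cars2, Lars2 and Eral1.

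Other mitochondrial lists and the cytosolic ribosome were measured beside this apparatus. The shares of all genes tested in CON STZ were 44.8% below 0, and 2.29% lower and 1.66% higher at the threshold. The 8 measured genes of mitochondrial DNA maintenance and transcription had a median of -0.19, with 7 below 0 and 0 past the threshold. The 36 nuclear genes of complex I had -0.13, with 33 below 0 and 2 lower at the threshold (Ndufs4 and Ndufs8). The 35 of complexes III, IV and V had -0.081, with 34 below 0 and 0 past the threshold. A value below 0 in nearly every gene was thus not particular to the mitochondrial ribosome. The cytosolic ribosomal proteins, which build the ribosome outside mitochondria, had a median of 0.029 over 77 genes, 20 of them below 0, and 0 passed. Of the 11 measured regulators of mitochondrial biogenesis, Esrrg, a nuclear receptor that drives oxidative genes, fell by 0.28 (adjusted p = 0.042). Myc, a growth regulator, rose by 1.24 (adjusted p = 0.020). The calls of Esrrg and Ndufs4 were each lost in 23 of 37 alternatives. Ppargc1a, the coactivator PGC-1 alpha, ran from 3.18 through 3.67 to 4.04 in CON VEH and from 3.17 through 3.78 to 4.11 in CON STZ, which overlap almost fully. In mG4H the medians were -0.13 for the ribosome proteins with other names, -0.18 for the translation factors and -0.14 for the synthetases. The assembly and ribosomal RNA factors had -0.15 and the cytosolic ribosomal proteins 0.018. Complex I had -0.11 with 34 of 36 genes below 0, and complexes III, IV and V had -0.078 with 32 of 35. Mitochondrial DNA maintenance and transcription had -0.038 with 7 of 8 below 0, and the regulators had 0.045 with 4 of 11. In mG4H 0 genes of these lists passed the threshold.

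**Figure D4:**
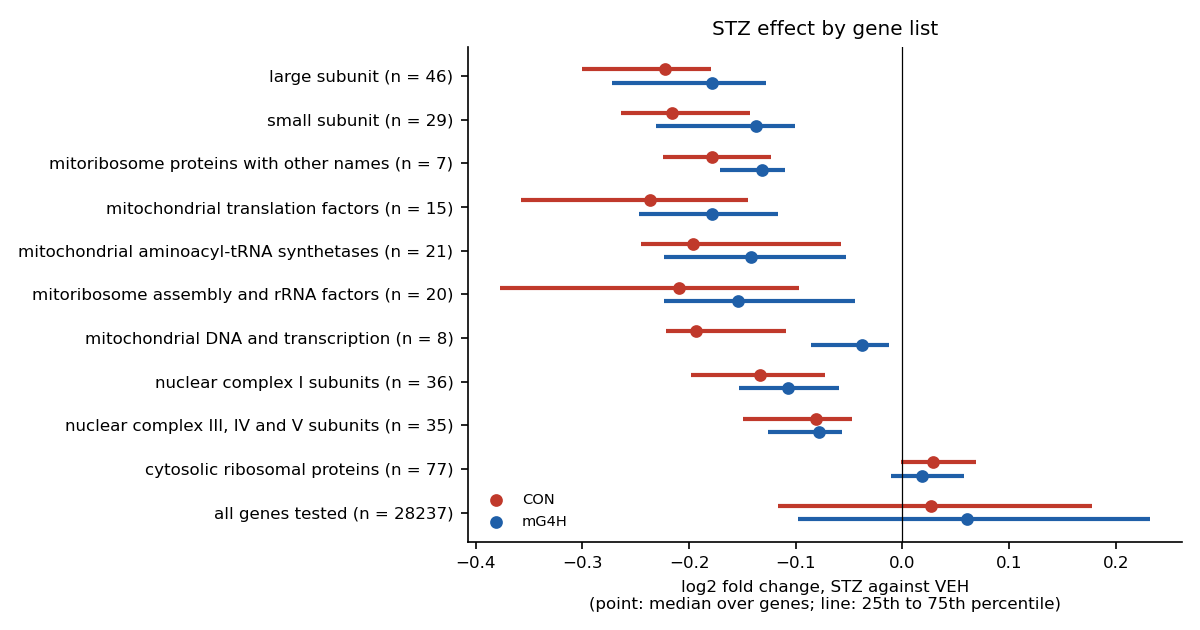
Median log2 fold change of STZ against VEH (points) and the range from the 25th to the 75th percentile of genes (lines) for each gene list, in CON and in mG4H. The mitochondrial translation lists lie between -0.24 and -0.13, and cytosolic ribosomal proteins lie near all genes tested, at 0.029 and 0.018.

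The genes that start opposite the ribosomal protein genes give a set of near neighbours. Of the 21 measured partners that are not themselves members, 14 were below 0 in CON STZ, 0 passed the threshold, and their median was -0.032, where the members they are paired with had -0.26. In mG4H STZ, 15 of these partners were below 0 and their median was -0.10. Over all genes, 44.8% were below 0 in CON STZ and 39.5% in mG4H STZ. For the pairs whose sequences are given above, Twnk (named Peo1 on the array) had -0.21 beside -0.37 for Mrpl43, Sars2 had -0.21 beside -0.33 for Mrps12, and Ptcd2 had -0.29 beside -0.34 for Mrps27. Fau had -0.021 beside -0.38 for Mrpl49. In the pair of members Mrpl46 and Mrps11 the values were -0.41 and -0.22. The difference within pairs was not tested. The 24 head-to-head members had a median of -0.26, and the other 42 members with a known start had -0.21.

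**Figure D5:**
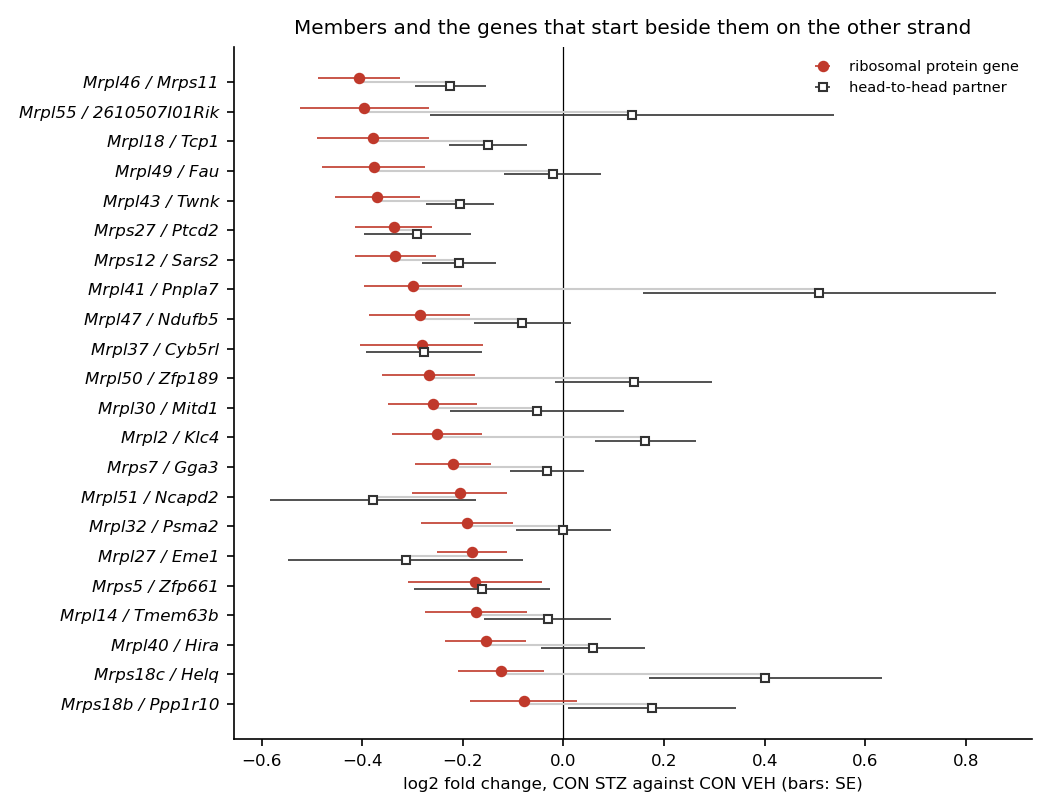
Log2 fold change in CON STZ against CON VEH, with the standard error, of head-to-head members (circles) and of the gene that starts beside each on the other strand (squares), joined by a line; the pair of members Mrpl46 and Mrps11 is drawn once. Circles all lie below 0, whereas squares lie on both sides of 0, from -0.38 for Ncapd2 to 0.51 for Pnpla7.

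Second probes gave a check of the members within the same arrays. For 22 members 23 further probes passed the background filter, and 21 of these had a value below 0 in CON STZ, with a median of -0.23. In a fit of all probes, which adjusts over more tests than the fit of genes, 3 of these were lower at the threshold, the second probes of Mrpl43 at -0.36, of Mrpl49 at -0.53 and of Mrpl4 at -0.33. Of the 7 members, 6 passed in that fit with the probe used in the main fit, and Mrpl12 had an adjusted p of 0.052. Only Mrpl43 and Mrpl49 among them had a second probe past the filter. For Mrpl12, Mrpl42, Mrpl46, Mrps12 and Mrps27 that fit repeats the same probe and is no check by another. The brighter probe of Mrpl4 had -0.25 and did not pass. A dim second probe of Mrpl41 had 0.34 (SE 0.29) beside -0.30 for its bright probe. In mG4H 20 of the 23 were below 0, with a median of -0.19, and 0 passed.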

How the data were processed

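Left ventricular RNA of 24 mice was hybridised to 1-colour Agilent arrays. Per the file headers, each deposited intensity had its background subtracted and was detrended inside its own array, with no scaling across arrays, and probe positions are on build mm9. Agilent Feature Extraction and limma are named in the submitters' processing notes. The raw and local background intensity columns deposited by the authors served 1 alternative. Each array was scaled to its 75th percentile of gene spots on the log2 scale. Outlier spots were left out and repeated spots averaged, 39769 probes were well above background on at least 6 arrays, and the brightest stood for each of 28237 gene names. Among member values 5 were missing, and those fits used the remaining arrays. All 75 measured members matched RefSeq by accession under the same symbol. Probes were not assigned to exons.

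All arrays were fitted with limma 3.58.1 in R 4.3.3, with 4 group means and 5 contrasts, two-sided, adjusted by Benjamini-Hochberg over all genes at 0.05; the fit was tested on simulated data. Lists are described by counts and medians, with no test. Named were members past the threshold, the 5 highest and 5 lowest per contrast, the 3 brightest per subunit, the 3 smallest p where none passed, passing genes of the other lists, Slc2a4, and Mrps30, Mrps18a and Mrps36; the other stalk and central protuberance genes, the separated members, the head-to-head partners and Ppargc1a were named after values were seen. The members and the 19 gene lists, 10 of them cell type markers, were chosen with earlier results of these data known. Alternatives were quantile and median scaling, normexp with an offset of 50, other filters, the mean of probes, separate fits, array weights, blocks for slide and replicate number, omission of slide 4, body weight, and omission of each array; centring on the tested genes, second probes and single slides were added after the data were seen. Python 3.11.15 with pandas 2.3.3, numpy 2.4.6 and matplotlib 3.10.9 was used.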

Additional observations from a re-analysis of the deposited data

Results flagged for a closer look

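Of 184 sets of 6 arrays examined for a single distant array, 10 had one, and chance gives about 1 in 20. Replicate 1 of CON STZ was low for Mrps12 at 3.16, with the next array at 3.45, and replicate 3 of CON STZ was low for Mrpl19 at 1.43, with the next at 2.28. Replicate 3 of CON VEH was low for Mrpl45 at 2.99, with the next at 3.68, and replicate 4 of CON VEH was high for Mrpl28 at 5.20, with the next at 4.94. Replicate 5 of mG4H STZ was high for Mrpl37 at 2.20, with the next at 1.80.

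Among genes of the other lists, replicate 3 of mG4H VEH was low for Tufm at 5.20 and for Slc2a4 at 6.33. Replicate 4 of CON VEH was low for Taco1 at 0.919. Replicate 3 of mG4H STZ was low for Lars2 at 2.21 and for Cars2 at 1.77.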

How the results depend on the processing

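In all 37 alternatives the median over members stayed below 0 in both STZ comparisons, from -0.26 to -0.19 in CON and from -0.26 to -0.14 in mG4H, and 0 members passed in the genotype comparisons. In the 36 alternatives run for the difference of STZ effects, 0 members passed. The count of 7 members lower in CON STZ was less stable. It was 13 with quantile normalization, 11 with normexp, 14 with probes above background on all arrays, 17 with array weights, 13 with the slide as a block, 2 with only the groups compared, 3 without slide 4, and 0 with median scaling, with centring on the tested genes or with body weight as a covariate; leaving out single arrays gave 4 to 15. Over all genes, 1117 passed in CON STZ, and 75, 317, 168, 2393 and 642 did with median scaling, centring, body weight, array weights and without slide 4. Body weight, listed without a unit, was 27.9 to 36.4 in CON VEH and 21.8 to 27.8 in CON STZ. In mG4H it was 25.5 to 31.2 under VEH and 21.1 to 28.1 under STZ. The CON groups did not overlap in weight, so weight and treatment cannot be fully told apart there. The part of weight in the results was not tested. In mG4H STZ the count of 0 became 1 with normexp, 1 with probes above background on all arrays and 3 with array weights, and 0 to 4 when single arrays were left out. The mG4H median over members was -0.26 with median scaling. The large minus small difference in CON STZ was -0.032 with the slide block and -0.035 with body weight. Without single arrays that difference ran from -0.057 to -0.010 in mG4H STZ, and from -0.023 to 0.016 for the difference of STZ effects. Apart from what was stated with each result, the cause was not tested.

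Values near 0 changed sign. In CON STZ, Mrpl33 was -0.030 with median scaling and -0.023 with body weight. Mrps34 was -0.018 with median scaling, -0.0061 with normexp, -0.0035 with the slide block, -0.076 with body weight and -0.013 to 0.059 without single arrays. Mrpl52 was -0.030 with median scaling, -0.00092 with the slide block and -0.031 to 0.060 without single arrays, and Mrpl38 was -0.089 to 0.011 without single arrays. In mG4H STZ, median scaling gave -0.080 for Mrpl33, -0.092 for Mrps35 and -0.094 for Mrpl38, and centring on the tested genes gave -0.0035, -0.016 and -0.018. Mrpl33 was -0.023 with body weight, Mrps35 and Mrpl38 were -0.064 and -0.021 with array weights and -0.011 and -0.0073 without slide 4, and Mrpl9 was 0.012 with normexp. Without single arrays, mG4H STZ values ran from -0.033 to 0.075 for Mrpl33, -0.058 to 0.063 for Mrps35, -0.025 to 0.053 for Mrpl38, -0.10 to 0.039 for Mrpl9 and -0.086 to 0.033 for Mrps30.

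Replicate numbers were shared by all groups, but 16 of 36 pairs of same-numbered arrays had a correlation of their deviations above 0.1, with a range from -0.6 to 0.664, so the numbers were not taken as pairing. The highest correlations, 0.664, 0.622, 0.543 and 0.539, were all between arrays of the same slide. Some pairs on the same slide were negative, down to -0.355. The main fit has no term for the slide. With the replicate number as a block, 5 members passed in CON STZ, all among the 7, and 0 in mG4H STZ.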
